A study of Nicotiana benthamiana with 9 samples.

Results

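Chloroplast transcripts were compared between Nicotiana benthamiana leaves that expressed the RNA editing factor dPPRe-rpl2 from the plant expression vector pMDC32 and leaves that expressed the silencing suppressor P19 alone. The comparison takes 6 of the 9 libraries of the series, chosen by their labels: 3 with pMDC32 and 3 of P19. It covers all 105 plastid rows of a table of 106, the remaining row being the transgene, which was left out when libraries were scaled to each other. The other 3 libraries, with the same factor in the vector pGWB2, entered the model to set the spread and served as a second comparison.

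The pMDC32 leaves expressed dPPRe-rpl2 together with P19, and the P19 leaves expressed P19 only, so P19 was common to all groups. All plants are labelled wild type, all tissue is leaf, and expression was transient. Replicate 1 of each group is labelled 2 dpi (days post infiltration) and the others 3 dpi. The series text has 3 dpi throughout, and labelled day and replicate number cannot be told apart. No source used here gives the promoter of the transgene, the share of leaf cells that carried it or the number of plants behind a library. Libraries are called biological replicates in the series text. Where libraries came from the same plants, p-values would measure only a technical spread.

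Plastids keep a small genome whose genes encode subunits of the photosynthetic complexes, part of the plastid ribosome, a plastid RNA polymerase, and transfer and ribosomal RNAs. Most of these genes are transcribed together with their neighbours on the same strand into long precursors, which are then cut, trimmed, spliced and, at certain cytidines, edited to uridine. Pentatricopeptide repeat (PPR) proteins bind such transcripts at chosen sequences, and in land plants they take part in each of these steps. The name of the factor points to rpl2, which encodes a protein of the large ribosomal subunit. Read counts per gene carry no information on editing, and editing levels were not analysed here.

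Plastid rows held 32237370 to 41238273 reads in the 6 libraries. Levels are given as CPM, edgeR's counts scaled to a common total of plastid reads with TMM factors, and differences as log2 of pMDC32 over P19. The plastid photosynthesis genes psbA and rbcL, whose transcripts abound in leaf chloroplasts, were abundant in all 6 libraries, psbA alone taking 44.5% to 61.1% of plastid reads. Nuclear leaf markers were not analysed here. P19 replicate 1 stood apart from the rest of the series: its genes deviated from the median of the other 8 libraries by 0.511 on the log2 scale (median of absolute values), against 0.0974 to 0.228 for the other libraries. Results are therefore given with and without it. Sequencing lanes, read from the column names, were 8, 8 and 5 for pMDC32 replicates 1, 2 and 3 and 8, 4 and 4 for P19 replicates 1, 2 and 3. Without P19 replicate 1, all P19 libraries are thus of lane 4, which holds no pMDC32 library. Group and lane then cannot be told apart. The P19 libraries left are also all labelled 3 dpi, while pMDC32 replicate 1 is labelled 2 dpi.

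The transgene checked the labels. Its row held 106322, 359902 and 219765 reads with pMDC32, against 0, 11 and 4 reads in P19, and the 0 of P19 replicate 1 allows up to 0.0858 CPM without TMM factors (3 counts, counting error only). Scaled levels were 2674, 9526 and 6563 CPM with pMDC32. Every pMDC32 library lay above every P19 library. With pMDC32 the fitted level of its RNA was higher by 15.35 on the log2 scale (SE 1.03, Benjamini-Hochberg (BH) adjusted p = 5.4e-06 in the edgeR quasi-likelihood fit). The groups were defined by the transgene, so this test only checks the labels. Its size rests on the 0, 11 and 4 reads in P19 and is not a measured fold change. Of the pMDC32 libraries replicate 2 had the highest level and replicate 1, the library labelled 2 dpi, the lowest. In these bulk samples, fewer transformed cells and less transgene RNA per cell cannot be told apart.

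No plastid gene passed the test in leaves with the pMDC32 editor. In the edgeR quasi-likelihood fit 0 of 105 genes (0%) were called at 0.05 after BH adjustment, the smallest adjusted p being 0.458. At an unadjusted 0.05 there were 8 genes (7.62%). DESeq2 called 1 gene, rpl33, and limma-voom called 0. The 95% interval of the difference lay within 2-fold for 90 genes and within 1.5-fold for 35, so smaller differences may not have been detectable with these libraries. With P19 replicate 1 left out, 0 genes (0%) passed and 12 (11.4%) were under 0.05 unadjusted, while the sign of the difference turned in 29 of the 105 genes. The pMDC32 libraries lay wholly above those of P19 for 9 genes (8.57%) and wholly below for 7 (6.67%). Against P19 replicates 2 and 3 alone these numbers were 15 (14.3%) and 10 (9.52%). Groups separate more readily by order alone when fewer libraries are compared, so this rise does not measure clearer separation.

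The gene with the smallest p was petL, for a small cytochrome b6f subunit (plastid positions 68008 to 68103 of its plus strand, in a build that no source used here names). It had 416, 369 and 442 CPM with pMDC32, against 1043, 504 and 582 CPM in P19. All 3 pMDC32 libraries lay below all 3 P19 libraries, and P19 replicate 1 was the highest of the 6. The log2 difference was -0.80 (SE 0.25), and -0.47 without that library. The next was rpl33, for a protein of the large ribosomal subunit, with 513, 505 and 489 CPM with pMDC32, against 391, 366 and 404 CPM in P19. Its groups did not overlap, its replicates lay close together in both, and its difference of 0.38 (SE 0.13) was 0.33 without P19 replicate 1. Neither passed (BH-adjusted p = 0.458 for each, edgeR).

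Among the 10 genes with the smallest p, the rps18 transcript, for a protein of the small ribosomal subunit, had 859, 878 and 967 CPM with pMDC32, against 753, 703 and 722 CPM in P19. It lies next to rpl33 on the same strand, and its groups did not overlap either (difference 0.31 (SE 0.14), 0.28 without P19 replicate 1). For rps7, of the small subunit as well, there were 1718, 1574 and 1358 CPM with pMDC32, against 864, 1331 and 1146 CPM in P19. The pMDC32 libraries were all higher, P19 replicate 1 was the lowest, and the difference of 0.48 (SE 0.19) was 0.27 without it. The matK gene, for a maturase that acts in the splicing of plastid introns, had 9157, 10521 and 10203 CPM with pMDC32, against 5280.3, 9524 and 7133 CPM in P19. Its row lies inside that of trnK, the lysine tRNA gene, which had 13565, 15741 and 15469 CPM with pMDC32, against 8231, 13533 and 10527 CPM in P19. The trnK row held 1.42 to 1.56 times the reads of matK in these 6 libraries, so the pair cannot be read as separate transcripts. The differences were 0.45 (SE 0.21) for matK and 0.47 (SE 0.18) for trnK, and 0.20 and 0.26 without P19 replicate 1.

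**Figure D1:**
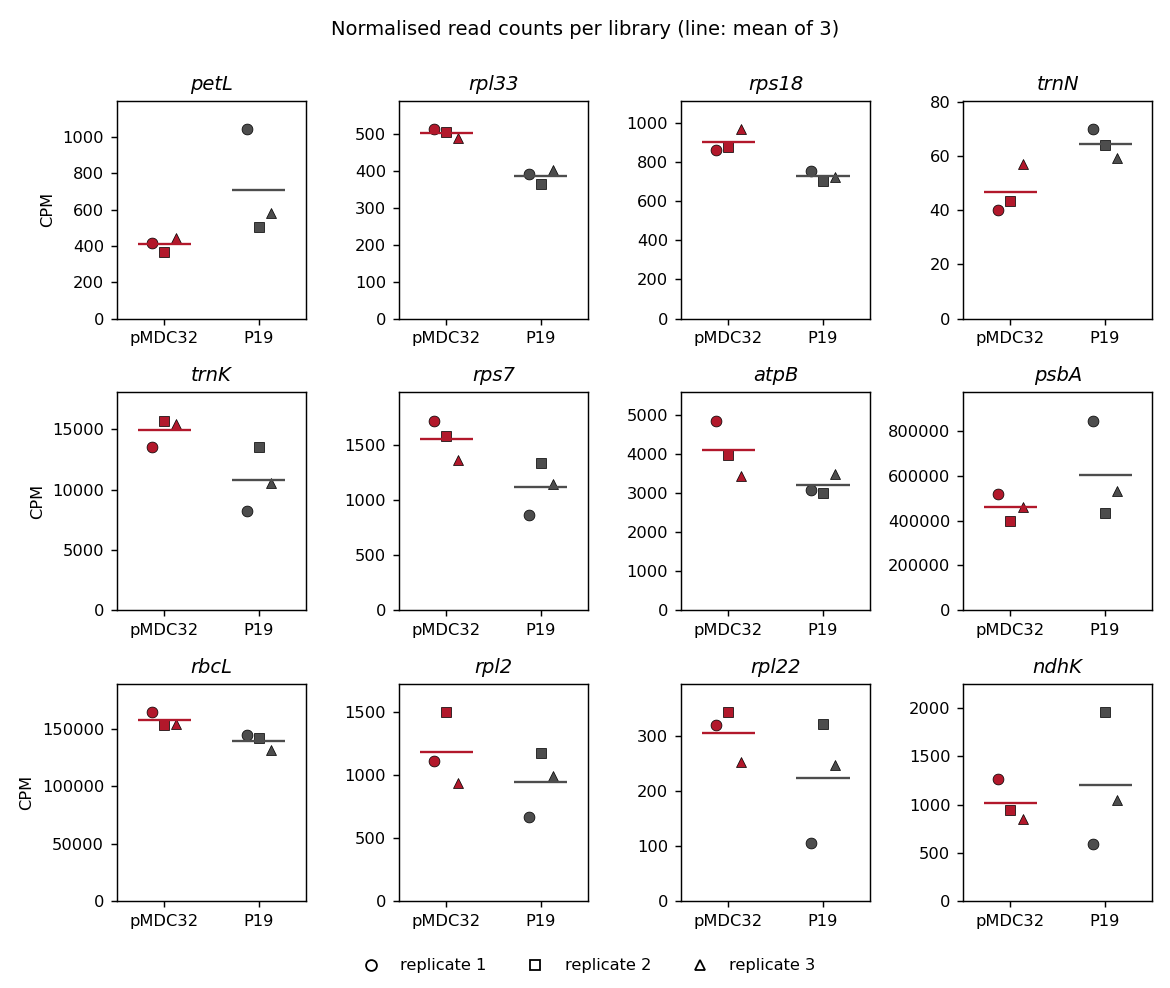
Levels of 12 genes in CPM (vertical axes, from 0) in each of the 3 pMDC32 and 3 P19 libraries; symbols mark the replicate and lines the mean of 3. P19 replicate 1 (grey circles) is the highest P19 library for petL and psbA and the lowest for rps7, rpl2, rpl22 and ndhK, while rpl33 and rps18 separate the groups with little spread.

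Photosystem II splits water at the start of photosynthetic electron transport, and its plastid genes encode the reaction centre and many small subunits. Of its 15 genes 3 lay above P19 and 12 below, beside 49 above and 56 below of all 105 plastid genes. The median log2 difference was -0.23, beside -0.058 over all 105. When libraries were scaled by the plastid total alone, 8 of the 15 lay above, beside 68 of all 105. The psbA transcript, for the D1 reaction centre protein, had 517708, 396063 and 461252 CPM with pMDC32, against 846546, 434149 and 530523 CPM in P19. P19 replicate 1 exceeded the other 5 libraries, and the remaining P19 libraries overlapped with those of pMDC32 (difference -0.40 (SE 0.21), -0.14 without that library). The psbM transcript, for a small subunit, had 3075, 3066 and 3911 CPM with pMDC32, against 6320.4, 4252 and 3418 CPM in P19. Its difference was -0.48 (SE 0.23), and -0.25 without P19 replicate 1. At the other end stood psbN, for a protein needed for assembly of the complex, with 1286, 1093 and 1164 CPM with pMDC32, against 989, 1003 and 1224 CPM in P19, and the small subunit gene psbT, with 1816, 1615 and 1756 CPM with pMDC32, against 1804, 1538 and 1673 CPM in P19. Both overlapped between groups (differences 0.14 (SE 0.15) and 0.049 (SE 0.14)). Leaving out P19 replicate 1, the complex had 7 genes above and 8 below, with a median of -0.004. Of all 105 genes 52 then lay above and 53 below.

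Photosystem I, which reduces ferredoxin, divided into members above and below P19. Of its 7 genes, assembly factors ycf3 and ycf4 included, 4 lay above and 3 below, and the median of 0.047 turned to -0.052 under upper quartile scaling. The psaA transcript, for a core protein that binds chlorophyll, had 9951, 10503 and 9089 CPM with pMDC32, against 6305, 7630.2 and 10311 CPM in P19. That of ycf4 had 1368, 1293 and 1165 CPM with pMDC32, against 811, 1211 and 1089 CPM in P19. In both P19 replicate 1 was the lowest library. The small subunit gene psaI had 1686, 1707 and 2025 CPM with pMDC32, against 3215, 1566 and 1832 CPM in P19. That of psaJ had 3263, 2825 and 3527 CPM with pMDC32, against 5916, 2418 and 3133 CPM in P19. In these P19 replicate 1 was the highest library. The 3 members below P19 were psaI, psaJ and psaC, whose rows span 111, 135 and 246 nt, against 2205 nt for psaB; the part of row length in the difference was not tested. Differences were 0.29 (SE 0.20) for psaA, 0.30 (SE 0.18) for ycf4, -0.29 (SE 0.25) for psaI and -0.25 (SE 0.29) for psaJ. Once P19 replicate 1 was left out they drew together to 0.076, 0.093, 0.026 and 0.14, and 6 of 7 genes lay above.

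The cytochrome b6f complex links the photosystems. Of its 6 genes 5 lay below P19 and 1 above, with a median of -0.20. Under scaling by the plastid total 3 lay above, beside 68 of all 105 genes. Next to petL, the small subunit gene petG had 642, 606 and 744 CPM with pMDC32, against 1319.6, 588 and 722 CPM in P19, again with P19 replicate 1 as the highest library and the others mixed (difference -0.40 (SE 0.27), -0.042 without it). The petA transcript, for cytochrome f, had 1696, 1593 and 1386 CPM with pMDC32, against 1212, 1636 and 1432 CPM in P19, a difference of 0.13 (SE 0.16). Against P19 replicates 2 and 3 the complex stood at 3 above and 3 below, with a median of 0.011. Only petL then kept its pMDC32 libraries wholly below those of P19 among the 6 genes.

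The ATP synthase makes ATP from the proton gradient. Its genes lay above P19 in 6 of 6 cases under the main scaling, beside 49 of all 105 genes. Under upper quartile scaling 4 of 6 lay above, beside 37 of all 105. Differences under the main scaling ran from 0.065 to 0.38 with a median of 0.23. The atpA transcript, for the alpha subunit, had 5985, 4890.3 and 4482 CPM with pMDC32, against 2935, 4791 and 4082 CPM in P19. That of atpB, for the beta subunit, had 4865, 3994 and 3444 CPM with pMDC32, against 3095, 3018 and 3483 CPM in P19. P19 replicate 1 was the lowest library for atpA but not for atpB, and in both genes the groups overlapped. For atpE, the epsilon subunit gene that overlaps the end of atpB, the 3 pMDC32 libraries were all higher, with 2566, 2225 and 2118 CPM with pMDC32, against 1933, 1624 and 2052 CPM in P19. The differences were 0.38 (SE 0.20), 0.36 (SE 0.16) and 0.30 (SE 0.15). All 6 genes still lay above without P19 replicate 1, between 0.065 and 0.28 (median 0.20), and 3 of 6 did not overlap with P19 replicates 2 and 3, beside 14.3% of all genes. Within lane 8, whose only P19 library is replicate 1, 3 of the 6 lay above P19, beside 51 of all 105 genes. The genes atpA, atpF, atpH and atpI are neighbours on the same strand, and atpE overlaps atpB. The 6 genes are thus not separate observations. No member passed the test.

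The NDH complex carries electrons around photosystem I. Of its 11 genes 4 lay above P19 and 7 below (median -0.092). Under scaling by the plastid total 8 lay above, beside 68 of all 105 genes. The highest difference was that of ndhH, with 605, 533 and 474 CPM with pMDC32, against 279, 481 and 421 CPM in P19, and P19 replicate 1 was again the lowest library. For ndhB there were 3675, 3079 and 2831 CPM with pMDC32, against 3124, 2307 and 2798 CPM in P19, the groups overlapping. The lowest differences were those of the neighbours ndhK and ndhJ. The ndhK row had 1261, 940.0 and 850.1 CPM with pMDC32, against 591, 1958 and 1050.3 CPM in P19, and ndhJ had 1021, 818 and 728 CPM with pMDC32, against 521, 1573 and 837 CPM in P19. Here P19 replicate 1 was the lowest and P19 replicate 2 the highest of the 6 libraries, with all pMDC32 libraries between them. Differences were 0.45 (SE 0.23) for ndhH, 0.22 (SE 0.17) for ndhB, -0.24 (SE 0.37) for ndhK and -0.19 (SE 0.34) for ndhJ. Leaving out P19 replicate 1, they were 0.20, 0.26, -0.62 and -0.55, and 7 of 11 genes lay above P19.

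The large subunit of Rubisco, the enzyme that fixes carbon dioxide, is encoded by rbcL, which had 164796, 153589 and 153883 CPM with pMDC32, against 144698, 141876 and 131787 CPM in P19. Its pMDC32 libraries were all higher, and its difference of 0.17 (SE 0.082) had the smallest SE of all plastid genes. It stayed at 0.14 without P19 replicate 1 and did not pass (BH-adjusted p = 0.536, edgeR).

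The plastid-encoded RNA polymerase, which transcribes most photosynthesis genes, has 4 genes in the table, 3 of them above P19 with a median of 0.089 that turned to -0.035 under upper quartile scaling. The rpoB transcript had 416, 491 and 403 CPM with pMDC32, against 218, 539 and 419 CPM in P19, and rpoC1 had 497, 636 and 462 CPM with pMDC32, against 224, 954 and 557 CPM in P19. In both, P19 replicate 2 was the highest and P19 replicate 1 the lowest library, with pMDC32 between. The rpoA transcript had 1006, 1031 and 1054 CPM with pMDC32, against 821, 1112 and 863 CPM in P19. Differences were 0.16 (SE 0.28) for rpoB, -0.12 (SE 0.41) for rpoC1 and 0.15 (SE 0.15) for rpoA. Against P19 replicates 2 and 3 they were -0.19, -0.55 and 0.006, and 1 of 4 genes lay above P19 (median -0.26). This was the widest median spread among protein-coding groups in P19, with an SD of 0.72 on the log2 scale, against 0.18 with pMDC32.

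Proteins of the plastid ribosome are encoded by 21 genes. For the large subunit 8 of 9 genes lay above P19 (7 or 8 of 9 under the other scalings; median 0.30), and for the small subunit 9 of 12 (8 to 11 of 12; median 0.22). The gene named in the editor, rpl2 (154104 to 155605, plus strand), had 1114, 1503 and 940.1 CPM with pMDC32, against 669.6, 1174 and 993 CPM in P19. Its cotranscribed neighbour rpl23 had 285, 327 and 274 CPM with pMDC32, against 172, 307 and 270.4 CPM in P19. The groups overlapped in both, and P19 replicate 1 was the lowest library in both (differences 0.33 (SE 0.24) and 0.24 (SE 0.21)). The 95% interval for rpl2 was -0.20 to 0.86 on the log2 scale. Both genes lie in the inverted repeat, which plastid genomes carry as a pair of copies, while the table lists each once, so how reads of the other copy were counted is uncertain. The same holds for rps7, ndhB, ycf15, ycf2, trnR, trnN, trnV, trnA, trnL, trnI and the ribosomal RNA genes. The rpl22 transcript had 320.3, 344 and 253 CPM with pMDC32, against 105, 322 and 247 CPM in P19, and rps19 had 179, 188 and 140.2 CPM with pMDC32, against 60.9, 168 and 129 CPM in P19. P19 replicate 1 was lowest by far, P19 replicate 2 lay among the pMDC32 libraries and P19 replicate 3 just below them (differences 0.44 (SE 0.33) and 0.50 (SE 0.31)). Without it the differences were 0.082 for rpl2, -0.021 for rpl23, 0.051 for rpl22 and 0.13 for rps19. The members below P19 included rpl32, with 625, 603 and 667 CPM with pMDC32, against 1051, 625 and 612 CPM in P19, and rps16, with 1994, 2229 and 2569.7 CPM with pMDC32, against 2153, 3644 and 2444 CPM in P19. With P19 replicate 1 left out, the large subunit had 4 of 9 genes above (median -0.015) and the small subunit 6 of 12 (median -0.016).

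The rps12 row, for a small subunit protein whose transcript is joined from separate precursors, is reported with a caution. It had 104619, 104508 and 102546 CPM with pMDC32, against 121323, 113498 and 111827 CPM in P19, with all pMDC32 libraries lower (difference -0.15 (SE 0.090)). The row spans 70359 nt and 37 other rows, 9 of them on its strand. Its reads were 1.64 to 1.98 times the sum over all 37 rows in these libraries, so its value is not that of rps12 messenger RNA alone.

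The remaining protein-coding genes split, with 5 of 9 above P19 and a median of 0.067 that turned to -0.036 under upper quartile scaling. The accD transcript, for a subunit of acetyl-CoA carboxylase in fatty acid synthesis, had 699, 728 and 724 CPM with pMDC32, against 629.7, 892 and 724 CPM in P19 (difference -0.062 (SE 0.17)). For clpP1, a subunit of the Clp protease, there were 1119.7, 1288 and 1326 CPM with pMDC32, against 1207, 1294 and 1063 CPM in P19 (difference 0.067 (SE 0.15)). Neither separated the groups. The cemA transcript, for an envelope membrane protein, had 1431, 1442 and 1231 CPM with pMDC32, against 899, 1392 and 1246 CPM in P19, and ccsA, for a protein that attaches haem to c-type cytochromes, had 1085, 1547 and 1526 CPM with pMDC32, against 1912, 1708 and 1385 CPM in P19. Both overlapped as well (differences 0.21 (SE 0.18) and -0.27 (SE 0.23)). The row ycf15 had 204, 201 and 184 CPM with pMDC32, against 167, 262 and 196 CPM in P19 (difference -0.088 (SE 0.19)). Against P19 replicates 2 and 3, 3 of the 9 genes lay above.

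Transfer RNA rows lay below P19 in 16 of 21 cases (13 to 18 of 21 under the other scalings), with a median of -0.21. Of all 105 genes 56 lay below under the main scaling. Without P19 replicate 1 the tRNA rows lay below in 15 of 21 cases (median -0.23), beside 53 of all 105 genes. The initiator tRNA gene trnfM had 9.58, 11.8 and 10.9 CPM with pMDC32, against 16.8, 16.0 and 14.8 CPM in P19. The arginine tRNA gene trnR had 95.6, 175 and 182 CPM with pMDC32, against 202, 258 and 198 CPM in P19, and the asparagine tRNA gene trnN had 40.1, 43.4 and 57.1 CPM with pMDC32, against 69.9, 64.2 and 59.3 CPM in P19. All pMDC32 libraries were lower in these 3 rows, and P19 replicate 1 did not stand apart in them. Differences were -0.56 (SE 0.21) for trnfM, -0.54 (SE 0.33) for trnR and -0.46 (SE 0.18) for trnN, and -0.57, -0.65 and -0.46 without that library. Besides trnK, the largest positive difference was that of the methionine tRNA gene trnM, with 65.5, 51.2 and 48.2 CPM with pMDC32, against 51.6, 46.1 and 45.5 CPM in P19 (difference 0.20 (SE 0.17)). Ribosomal RNA rows lay below P19 in 4 of 4 cases under all 6 scalings and in 2 of 4 without P19 replicate 1. The lowest were rrn4.5, with 1.84, 4.08 and 3.05 CPM with pMDC32, against 5.59, 4.12 and 11.2 CPM in P19, and rrn5, with 1.28, 1.06 and 1.49 CPM with pMDC32, against 1.51, 2.29 and 1.25 CPM in P19. These had the lowest levels of all plastid rows. The libraries were made after ribosomal RNA depletion, per the labels, and the part of depletion in these differences was not tested.

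**Figure D2:**
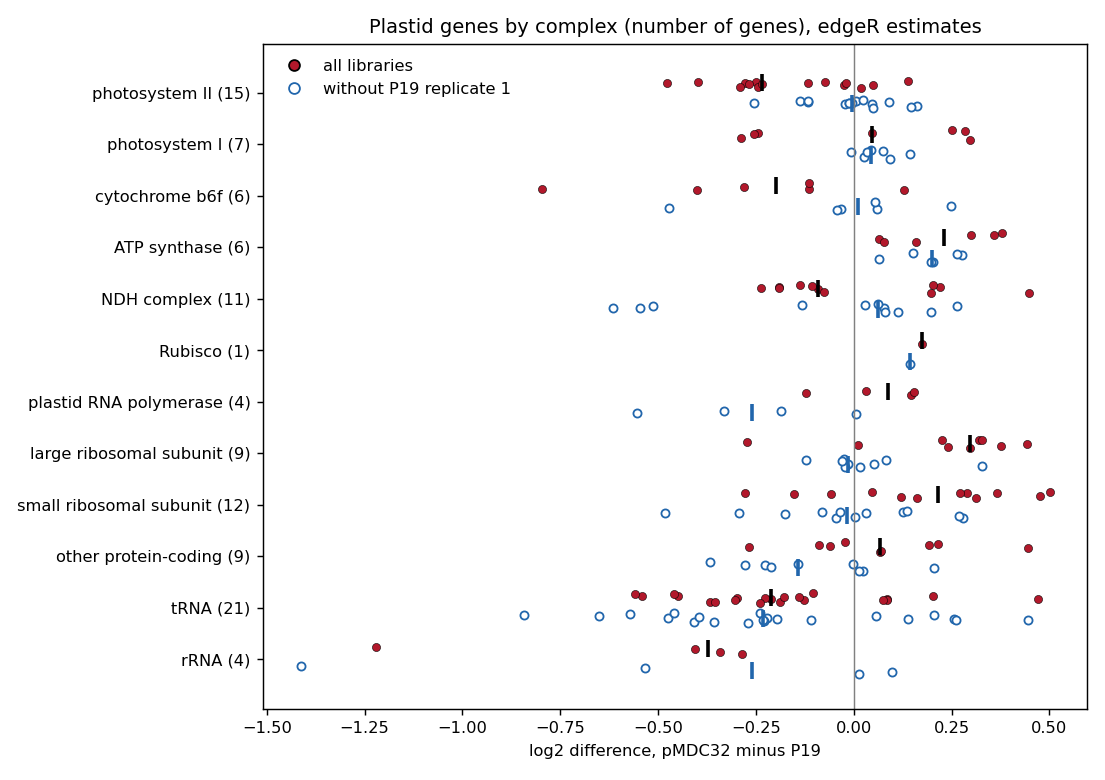
Log2 difference of pMDC32 minus P19 for each plastid gene (horizontal axis), grouped by complex, with red points for all libraries, open blue points without P19 replicate 1 and bars for the medians. The ATP synthase stays right of 0 in both, whereas the ribosomal subunits move from medians of 0.30 and 0.22 to about 0 and the RNA polymerase crosses to -0.26.

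Shares of plastid reads, which use no scaling factor, gave a view by complex. Photosystem II took 59.6, 54.2 and 57.8% with pMDC32, against 70.6, 57.0 and 62.1% in P19. Rubisco took 15.9, 17.2 and 16.0% with pMDC32, against 10.4, 15.4 and 13.1% in P19, and the ATP synthase 2.38, 2.40 and 2.19% with pMDC32, against 1.40, 2.06 and 1.87% in P19. For Rubisco and the ATP synthase the pMDC32 libraries were all higher, and for photosystem II the groups overlapped. The differences in mean share were 3.39 percentage points for Rubisco and 0.549 for the ATP synthase (2.12 and 0.36 without P19 replicate 1) and -6.04 for photosystem II (-2.36 without it). By a two-sided exact permutation test p was 0.1 for Rubisco and for the ATP synthase, the smallest that 3 against 3 libraries can give, and 0.6 after adjustment over the 12 groups. Photosystem I took 3.10, 3.73 and 3.40% with pMDC32, against 2.29, 2.93 and 3.31% in P19. The RNA polymerase took 0.249, 0.339 and 0.271% with pMDC32, against 0.118, 0.398 and 0.256% in P19, the P19 range covering all pMDC32 libraries. With psbA reads left out of the totals, the ATP synthase took 4.76, 4.33 and 4.20% with pMDC32, against 3.60, 3.90 and 3.95% in P19, and Rubisco 31.7, 31.0 and 30.7% with pMDC32, against 26.9, 29.2 and 27.6% in P19. Again all pMDC32 libraries were higher in both (exact permutation p = 0.1, and 0.4 adjusted). Photosystem II then took 19.3, 17.6 and 19.1% with pMDC32, against 24.5, 18.5 and 20.1% in P19, the groups overlapping. Its difference in mean share was -2.37 percentage points, and -0.65 without P19 replicate 1. The small ribosomal subunit, rps12 row included, then took 22.0, 23.2 and 22.5% with pMDC32, against 24.0, 25.6 and 25.4% in P19. All its pMDC32 libraries were lower (exact permutation p = 0.1, and 0.4 adjusted). Most of this share was the rps12 row, whose value is not that of rps12 messenger RNA alone. With psbA counted, that row held 11.7% of plastid reads in pMDC32 replicate 2, where the subunit took 12.9%. In P19 replicate 1 these were 8.76% and 9.32%. By log2 difference 9 of the 12 subunit genes lay above P19 and 3, rps12 among them, below. The share thus does not describe the other genes of the subunit. No share passed its test in any group.

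**Figure D3:**
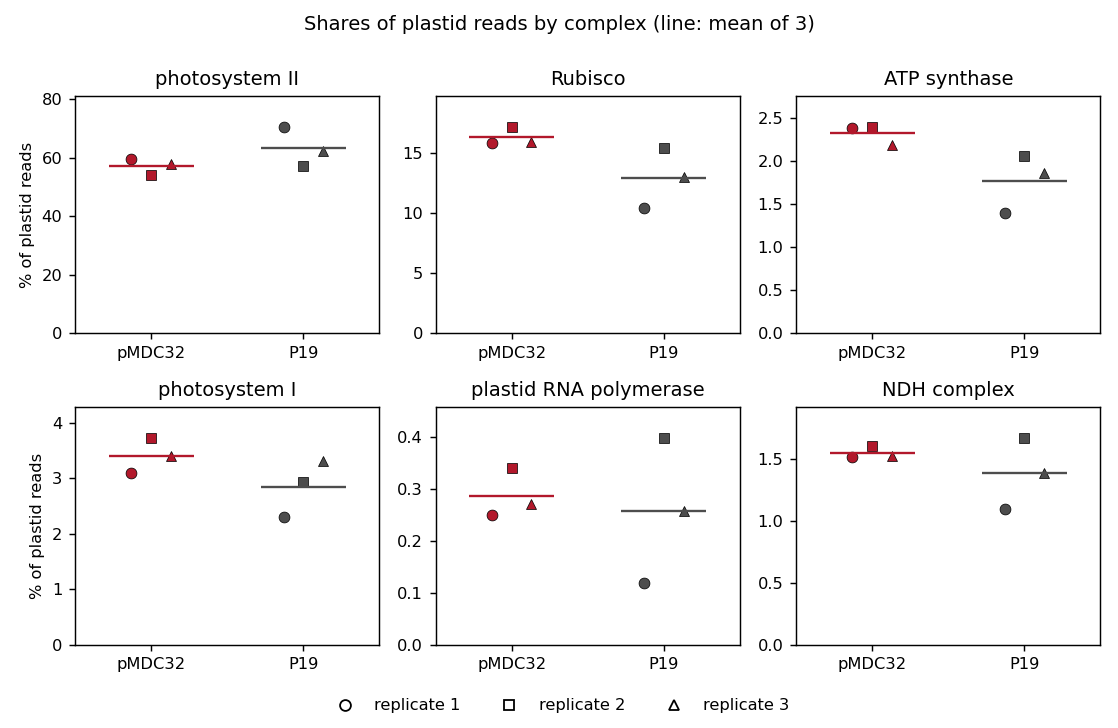
Share of plastid reads (percent, axes from 0) of 6 complexes in each of the 3 pMDC32 and 3 P19 libraries, with symbols for the replicate and lines for the mean of 3. Rubisco and the ATP synthase have all pMDC32 libraries above P19, while P19 replicate 1 is the highest library for photosystem II and the lowest for the other 5 complexes.

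Because plastid genes are transcribed in clusters, differences were also set along the genome. With rps12 left out, 104 genes in order of their start gave 69 neighbouring pairs on the same strand that did not overlap, 5 that overlapped and 29 on opposite strands. Log2 differences of same-strand neighbours were apart by 0.13 (median of absolute values), those of neighbours on opposite strands by 0.20 and those of all 5356 pairs of genes by 0.28. With P19 replicate 1 left out the values were 0.084, 0.12 and 0.23. Both members lay on the same side of P19 in 48 of 69 same-strand pairs (69.6%) and 20 of 29 opposite-strand pairs (69.0%), beside 49.7% of all pairs, and without P19 replicate 1 in 41 of 69 (59.4%), 19 of 29 (65.5%) and 49.5%. Same-strand neighbours were also nearer to each other, with a median gap of 223 nt against 445 nt. Among pairs under 1000 nt apart the median values were 0.13 for 60 same-strand pairs and 0.17 for 20 on opposite strands. Both members lay on the same side of P19 in 41 (68.3%) of these same-strand pairs and 16 (80.0%) of the opposite-strand ones. Among pairs of protein-coding genes the medians were 0.086 and 0.20, with the same side in 37 of 49 (75.5%) and 8 of 13 (61.5%). Without P19 replicate 1 these were 33 of 49 (67.3%) and 7 of 13 (53.8%). The pair rps19 and ndhF, neighbours by order of rows only, is among the 69, and without it the same-strand median was 0.12 over 68 pairs. Pairs share genes, libraries and, where rows touch, reads, so these values are descriptions without a test.

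Runs of 3 or more adjacent genes on the same strand numbered 15 and held 78 genes. The run with the narrowest range of differences was psbJ, psbL, psbF and psbE, the cluster for small subunits of photosystem II that includes cytochrome b559, from -0.28 to -0.23. Summed over the run there were 28794, 28421 and 34159 CPM with pMDC32, against 50821, 26723 and 31812 CPM in P19, so that P19 replicate 1 was far above 5 libraries of like level. Without it the 4 genes lay between -0.013 and 0.007. The next was ndhJ, ndhK and ndhC of the NDH complex, from -0.24 to -0.19, with 3140.1, 2452 and 2267 CPM with pMDC32, against 1616, 4801 and 2671 CPM in P19 in sum. The 3 genes kept close together without P19 replicate 1, but at -0.62 to -0.51. Their unadjusted p-values were then 0.0402, 0.0277 and 0.0194 (0.33 or more after BH adjustment, edgeR). Of the P19 libraries then left, replicate 2 alone lay above all pMDC32 libraries in sum (4801 CPM). P19 replicate 3 lay among them (2671 CPM). P19 replicate 1 had the highest sum in the psbJ run and the lowest in the ndhJ run.

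The widest runs held unlike kinds of RNA. From trnR through the ribosomal RNA genes to trnV, 7 genes spread from -1.22 (rrn4.5) to -0.10 (trnV). From trnH to trnQ, 6 genes ran from -0.40 (psbA) to 0.47 (trnK). Neighbours in these runs included psbA, which is transcribed by itself, and a nested pair of rows. The ranges without P19 replicate 1 were 1.51 and 0.74 on the log2 scale.

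A pair of long runs was described further, chosen after their values were seen. In the run from rpoA through infA and ribosomal protein genes to rps19, 10 of 10 genes lay above P19 under all 6 scalings, and from rpoA (0.15 (SE 0.15)) through rpl16 (0.30 (SE 0.22)) to rps19 (0.50 (SE 0.31)) the differences were larger toward rps19. Leaving out P19 replicate 1, they lay between -0.14 and 0.13, with 5 of 10 above. By order the run continues to ndhF, which is 25414 nt away and is counted in the runs, though the table lists the inverted repeat once and the genes may not be neighbours. The run from atpA to rpoB joins ATP synthase genes, rps2 and RNA polymerase genes. Against P19 replicates 2 and 3 its members lay above P19 up to atpI and below from rps2. For rps2 both of these P19 libraries exceeded all pMDC32 libraries. For rpoC2, rpoC1 and rpoB only P19 replicate 2 did (1053, 954 and 539 CPM). P19 replicate 3 lay among the pMDC32 libraries there (745, 557 and 419 CPM). Against these P19 libraries atpA, atpF, atpH and atpI stood at 0.15, 0.20, 0.065 and 0.20, and rps2, rpoC2, rpoC1 and rpoB at -0.29, -0.33, -0.55 and -0.19. With all libraries the same genes stood at 0.38, 0.16, 0.065 and 0.077, and at -0.058, 0.032, -0.12 and 0.16. Levels per length differed at the same place: atpI had 2769 ± 221 CPM per kb with pMDC32 and 2625 ± 559 in P19 (SD, n = 3 each), and rps2 had 284 ± 12.3 CPM per kb with pMDC32 and 295 ± 71.5 in P19.

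**Figure D4:**
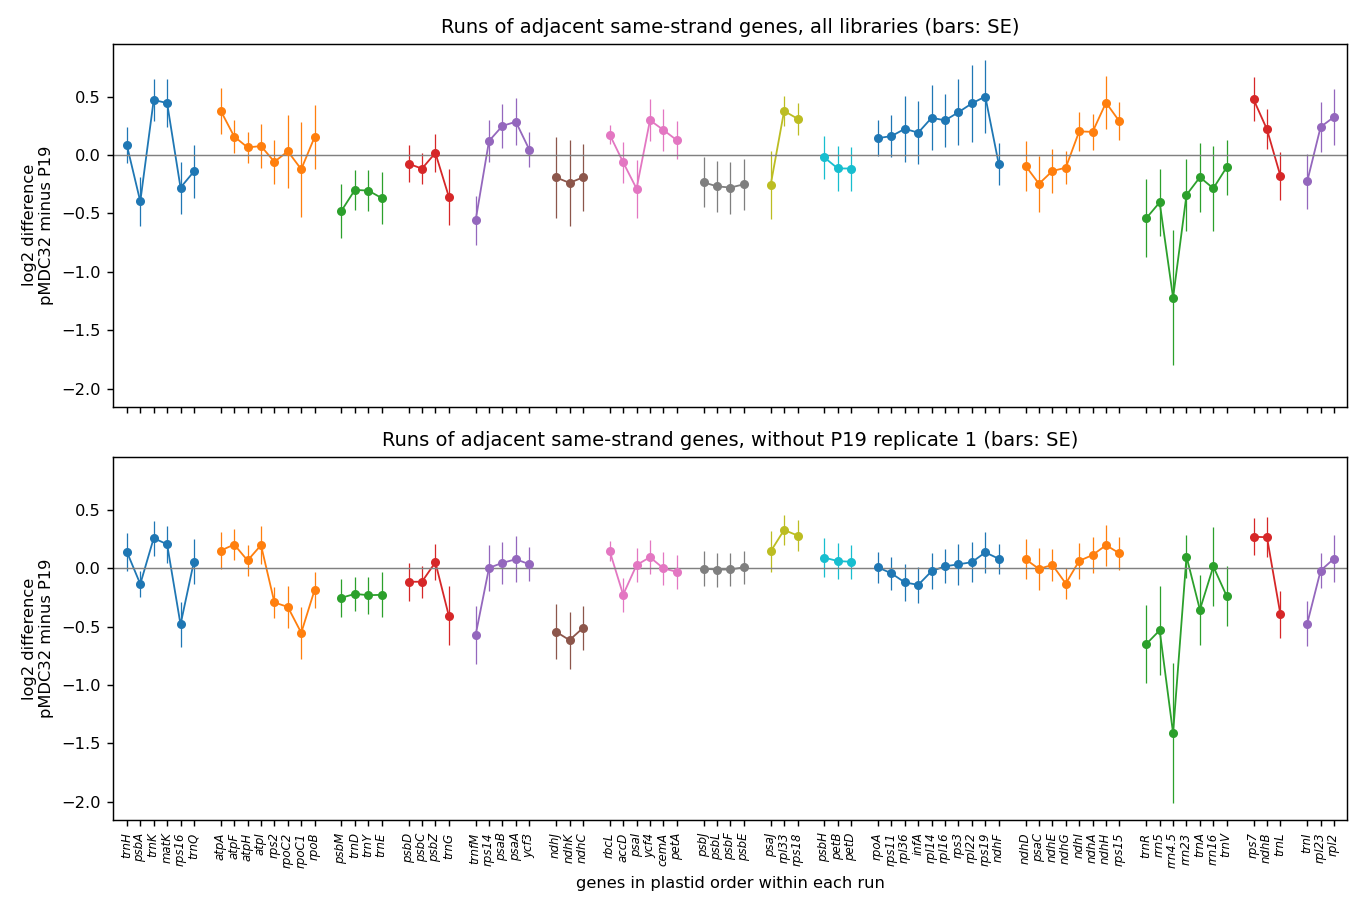
Log2 difference of pMDC32 minus P19 (vertical axis, bars 1 SE) for the genes of the 15 same-strand runs but 1 that is not shown, in plastid order within each run, with all libraries above and without P19 replicate 1 below. Colours separate runs; psbJ to psbE and ndhJ to ndhC stay level within the run, the gradient toward rps19 flattens in the lower panel, and atpA to rpoB there splits after atpI.

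Lane 8 was the sole lane with both groups, holding pMDC32 replicates 1 and 2 and P19 replicate 1. In a fit with lane as covariate, added after the data were seen, the comparison rests on those 3 libraries, and 24 plastid genes passed as higher with pMDC32 (22.9%) and 23 as lower (21.9%) in edgeR after BH adjustment. Higher were 6 of 9 genes of the large ribosomal subunit and 5 of 12 of the small one, 3 of 4 RNA polymerase genes, 4 of 9 other protein-coding genes, 3 of 7 photosystem I genes, and 1 each of the ATP synthase, the NDH complex and the tRNAs. Lower were 8 of 15 photosystem II genes, 4 of 6 cytochrome b6f genes, 3 of 7 photosystem I genes, 2 of 11 NDH genes, 4 of 21 tRNAs, 1 of 4 ribosomal RNAs and 1 of 9 large subunit genes. Within lane 8 the difference in mean log2 CPM was 1.58 for rps19, 0.95 for rpl2, 0.88 for ndhK, -0.90 for psbA and -1.41 for petL. The only P19 library there is replicate 1, so that lane, labelled day and this library cannot be told apart on the P19 side, and its own spread has no replicate. Medians within lane 8 were 1.04 for the RNA polymerase, 0.95 for the large ribosomal subunit and -0.79 for photosystem II. In the libraries labelled 3 dpi, none of which is P19 replicate 1, these medians were -0.18, 0.032 and 0.037, and 0 genes passed. There pMDC32 and P19 share no lane, so group and lane cannot be told apart.

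Editor leaves with pMDC32 were set directly against those with pGWB2, since the comparisons of either vector with P19 share their controls. All pGWB2 libraries came from lane 4 and none of pMDC32 did, so vector and lane cannot be told apart here. In edgeR 0 of 105 genes (0%) passed after BH adjustment, 0 were under 0.05 unadjusted, and DESeq2 and limma-voom called 0. The smallest p belonged to petL, with 416, 369 and 442 CPM with pMDC32, against 615, 586 and 539.8 CPM with pGWB2. The groups did not overlap, and those of pGWB2 and P19 did. Its log2 difference between vectors was -0.51 (SE 0.25, 95% interval -1.07 to 0.058). In a fit of these 2 groups alone petL passed (BH-adjusted p = 0.0483, edgeR). The transgene differed by 0.96 (SE 0.56, 95% interval -0.29 to 2.21), with 2674, 9526 and 6563 CPM with pMDC32 and 1228, 4131 and 4262 CPM with pGWB2. For rpl2 the difference between vectors was 0.16 (SE 0.24, 95% interval -0.37 to 0.69), for rpl33 0.088 (SE 0.13, 95% interval -0.20 to 0.38) and for atpB -0.057 (SE 0.16, 95% interval -0.41 to 0.30).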

How the data were processed

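RNA of leaves was measured by sequencing of directional libraries depleted of ribosomal RNA, per the labels' protocols. The authors deposited raw read counts, 1 value per gene row and library, made with HISAT2 2.2.1 and featureCounts 2.0.1 after Trim Galore 0.6.10 and FastQC 0.12.1, per the submitters' processing notes, which also name DESeq2 1.42.0. No source used here gives the genome build, the strand setting or how overlapping or multiply mapped reads were treated. Rows carry gene names in the deposited table, and row lengths include introns.

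The main test was that of edgeR 4.0.16 under R 4.3.3 (quasi-likelihood test, two-sided, Benjamini-Hochberg over all 106 rows, threshold 0.05) on all 9 libraries, with TMM factors and library sizes from the 105 plastid rows. The filterByExpr filter removed 0 rows. Plastid totals per library ran from 32237370 to 41238273 reads in the 6 libraries compared. Counting error is thus small beside the spread between libraries for rows with many reads. It weighs more for rrn5, with 38 to 88 reads in these libraries, and rrn4.5, with 73 to 410. Only plastid rows set the scale, so a shift shared by all plastid transcripts cannot be seen. Shares were compared with exact permutation tests (scipy 1.17.1). The log2 differences within lane 8 used a pseudocount of 0.5 CPM.

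Values of 1 plastid gene are not reported here by name. Members and lists were chosen with earlier results of these data known. Values per library are given for the 10 genes with the smallest p, 11 fixed genes, up to 2 highest and 2 lowest members of each complex, and the 2 narrowest and 2 widest runs. Those of atpE are given outside this rule, as are values cited for the long runs chosen after their values were seen. Of the 6 ATP synthase genes, atpE was the only 1 whose groups did not overlap with all libraries. Other scalings, DESeq2, limma 3.58.1 (voom), fewer rows or libraries, blocks and covariates were tried as alternatives.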

Additional observations from a re-analysis of the deposited data

How the results depend on the processing

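Leaving out each of the 6 libraries in turn gave 0 called plastid genes for pMDC32 against P19 every time. Unadjusted p-values under 0.05 then numbered 2 to 25 genes, the 25 without P19 replicate 2, where petL had an adjusted p of 0.0674 (edgeR, BH), and the transgene stayed past the threshold at 14.87 to 16.51. DESeq2 called 1 gene, and lane as covariate (added after the data were seen) called 47. The other alternatives that were run called 0. For pMDC32 against pGWB2 the fit of the 2 groups alone called 1 gene. Directions turned for rpl23 when libraries were left out (-0.021 to 0.42), for accD (-0.23 to 0.083; 0.066 by the plastid total and 0.18 with lane) and for clpP1 (-0.0070 to 0.14; -0.036 by upper quartile, -0.0052 without tRNA and rRNA rows and -0.0041 with lane). Within lane 8 distances were larger for all kinds of pairs, 0.29 for same-strand neighbours, 0.45 for those on opposite strands and 0.75 for all pairs. The cause of these shifts was not tested. Scaling by the plastid total moved the median of all genes by 0.18 on the log2 scale, and the other scalings by at most 0.097. Complexes and RNA classes with a median above P19 numbered 7 of 12, 10 of 12 by the plastid total, 4 by upper quartile (added after the data were seen) and 5 to 8 when libraries were left out.

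With the replicate number as a block, 0 plastid genes passed, 11 had an unadjusted p under 0.05, and the transgene stood at 15.49. Deviations of libraries with the same number correlated across genes at -0.20, 0.41 and -0.53 between pMDC32 and P19. Replicates 1, 2 and 3 of pMDC32 correlated best with P19 replicates 2, 3 and 1. The numbers were not taken to pair the samples. Deviations from a group mean sum to 0, so these correlations are not independent and cannot settle whether samples were paired. With 3 libraries a group and a median SE of 0.21, changes under about 2-fold were often not detectable, and rrn4.5 and rrn5 rest on the fewest reads.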
